A study of Sus scrofa with 22 samples.

Results

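RNA of day 30 pig fetuses was compared, gene by gene, between 3 libraries of fetuses labelled normal and 2 libraries of naturally fertilized (NF) fetuses, which are 5 of the 22 libraries of the series. The series concerns somatic cell nuclear transfer, in which a donor cell nucleus is placed in an enucleated egg. The normal fetuses are described here as clones on that basis, since their own labels give neither cloning nor the donor cells, breed or genotype. All 3 normal clones were labelled male, NF replicate 1 was labelled male and NF replicate 2 female. Each library was made from body tissue, with RNA taken up in Trizol and a NEBNext Ultra II RNA kit. The labels do not say whether a library is 1 animal or a pool, or that replicates are separate animals. The spread between replicate libraries, against which p-values are set, may therefore be technical. That spread was estimated over all fetus libraries of the series, abnormal clones and a later day included, and not over these 5 alone.

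A fetus of this age is building its organs. Primitive red cells carry embryonic globins, muscle precursors begin to make contractile proteins, neurons leave their progenitors, and HOX genes mark position along the body axis. Fibroblasts of connective tissue make collagen, fibronectin and other matrix proteins, while immediate early genes such as those of the AP-1 factors and interferon-induced genes respond within hours to stress, growth factors, wounding or infection. In bulk RNA, fewer cells of a type and less RNA per cell cannot be told apart.

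Transcript records were joined into 14389 genes by RefSeq accession, and 9911 genes passed the filter on low counts. Total expected counts, in units of 1e6, were 5.68, 9.36 and 7.58 in the normal clones and 11.5 and 10.2 in the NF fetuses. Levels are given as CPM, counts scaled to the size of each library. The normal libraries were close to each other, with Spearman correlations across genes of 0.987 to 0.989, against 0.868 to 0.905 between normal and NF libraries. The NF libraries differed more between themselves: 130 of 7771 well-expressed genes (1.67%) lay more than 4-fold apart, against 26 to 39 genes (0.335% to 0.502%) between any pair of normal libraries. NF replicate 2 was nearest to day 35 NF replicate 1, with a correlation of 0.990 and 27 such genes.

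The sex labels did not match a Y-linked transcript in the NF group. EIF1AY, the Y-linked copy of a translation initiation factor (chromosome Y, 9687350 to 9704489, Sscrofa11.1), had 42.4, 31.8 and 35.6 CPM in the normal clones. It had 0 CPM in NF replicate 1, labelled male, where 3 counts would give 0.409 CPM, and 33.5 CPM in NF replicate 2, labelled female. The NF group thus held 1 library with and 1 without this transcript. Summed over the 11 matched Y-linked genes, NF replicate 1 had 279 CPM, lower but not at 0, and NF replicate 2 had 1410 CPM. The normal clones had 1398, 1340 and 1237 CPM. For part of the results, though not for all that change, values without 1 of the NF libraries are also given.

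Marker levels were set against the label body tissue before any comparison. Transcripts of muscle, nerve, cartilage, vessel and connective tissue were present in all 5 libraries, while liver transcripts were scarce. ALB, the serum albumin, had 2.21 to 3.35 CPM in normal clones and 0.762 to 1.23 CPM in NF fetuses, and AFP, its fetal relative, had 0 to 2.17 CPM in normal clones and 0 CPM in both NF fetuses. Of 18 liver markers with a matched record, 3 were at 0 in all normal clones and 5 at 0 in both NF fetuses. The erythroid list summed to 1427, 3080 and 2851 CPM in the normal clones, against 230 and 391 CPM in the NF fetuses. Markers of leukocytes summed to 106 to 139 CPM in normal clones and to 124 and 165 CPM in NF fetuses, so their ranges overlapped. The labels do not say whether the same parts of the body were taken, or handled alike, in clones and NF fetuses. Differences in sampling or handling therefore cannot be told apart from the difference between the groups in any of the results, the matrix, culture, immediate early and erythroid genes among them.

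**Figure D1:**
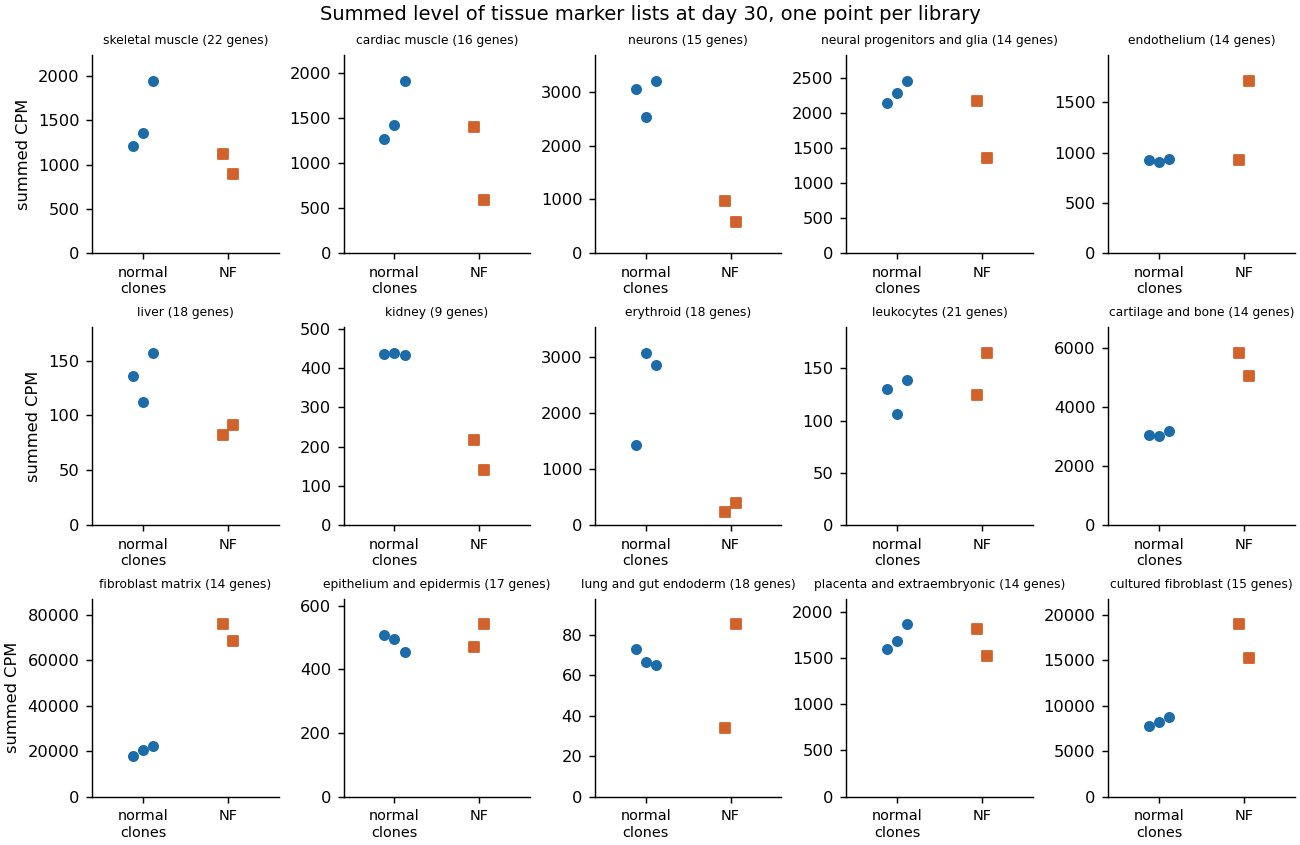
Summed level (CPM, linear axis from 0) of 15 marker lists in each day 30 library, with normal clones as circles on the left and NF fetuses as squares on the right. Fibroblast matrix genes sum to 17942 to 22248 CPM in normal clones and 68699 to 75903 CPM in NF fetuses, while neuron, kidney and erythroid markers sum higher in every normal library than in either NF library.

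Across all genes, 2906 of 9911 (29.3%) were called at an adjusted p under 0.05 by edgeR's quasi-likelihood test. Of these, 1387 genes (14%) were higher and 1519 (15.3%) lower in normal clones than in NF fetuses. A change of at least 4-fold was fitted for 570 of the genes called higher and 421 of those called lower. The median log2 fold change of all genes was near 0. The 3 normal and 2 NF libraries did not overlap in 65.8% of the genes tested, with the clones above in 33.2% and below in 32.6%. The count of calls was 2342 without NF replicate 1, 1276 without NF replicate 2, and 1858 to 1889 with 1 normal library left out. It was 4439 when the shallowest fetus library, day 35 abnormal replicate 2, was left out of the shared fit.

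**Figure D2:**
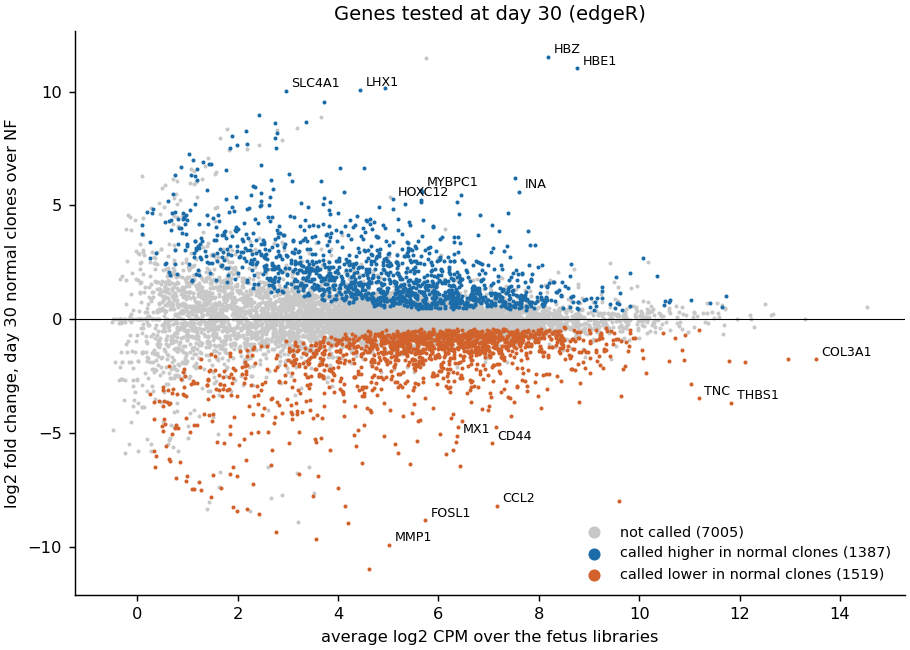
Log2 fold change of day 30 normal clones over NF fetuses (vertical) against the average log2 CPM over the fetus libraries (horizontal), one point per gene, with 1387 genes called higher and 1519 called lower in colour. Embryonic globins, nephric and neural genes stand at the top, and MMP1, FOSL1 and CCL2 at the bottom.

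Red cell genes gave some of the largest rises. HBE1 encodes an embryonic beta-type globin (chromosome 9, 4818206 to 4820243). It had 705, 1687 and 1409.6 CPM in the normal clones, against 0.136 and 1.07 CPM in the NF fetuses. Every normal library lay far above the higher NF library, and HBE1 rose by 11.02 ± 2.07 (log2 fold change ± SE, adjusted p = 0.00325). HBZ, the embryonic alpha-type globin (chromosome 3, 41490758 to 41492883), had 467, 1035 and 653 CPM in normal clones, against 0 and 0.457 CPM in NF fetuses (adjusted p = 0.00275). Since the NF libraries held 3 HBZ counts in all, its ratio of 3522 has a 95% interval of 1205 to 17081 from counting alone. The anion exchanger of the red cell membrane, SLC4A1 (chromosome 12, 18957813 to 18975266), had 18.1, 35.5 and 30.6 CPM in normal clones and was at 0 in both NF fetuses, at least 130-fold higher in clones with a floor of 3 counts over the NF group (adjusted p = 0.000797).

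Other erythroid members moved the same way, and the adult-type globin HBB did not pass the test. In the erythroid list 14 of 18 tested members rose and 1 fell, with a median log2 fold change of 4.07. The number that rose was 9 without either NF library. HBB itself had 60.5, 89.8 and 524 CPM in normal clones and 54.4 and 214 CPM in NF fetuses, with overlapping groups and an adjusted p of 0.569. The 1 member that fell was TFRC, the transferrin receptor that dividing cells of many kinds use to take up iron. It had 48 to 56 CPM in normal clones and 139 and 155 CPM in NF fetuses (adjusted p = 0.0252), a call lost when any 1 of the 5 libraries was left out (adjusted p up to 0.0968).

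Part of the contractile muscle genes were called higher in normal clones, whereas none of the tested factors that specify muscle cells was. Contractile genes not called included MYH1 (log2 fold change 1.03, adjusted p = 0.333), MYH2 (1.34, adjusted p = 0.166) and TNNT3 (0.36, adjusted p = 0.628). The muscle filament gene DES lay the other way and was not called (-1.08, adjusted p = 0.23). MYBPC1, a myosin-binding protein of slow skeletal fibres (chromosome 5, 82557975 to 82651237), had 42.4, 49.2 and 80.4 CPM in normal clones, against 0.955 and 1.22 CPM in NF fetuses. The groups lay far apart, and the gene rose by 5.69 ± 0.62 (adjusted p = 0.000224). TNNC2, the calcium-binding troponin of fast fibres, had 23.6 to 45.6 CPM in normal clones and 1.07 and 1.91 CPM in NF fetuses (4.42 ± 0.75, adjusted p = 0.00202). MYL1, an alkali light chain of fast myosin, rose by 3.62 ± 0.56 (adjusted p = 0.00121). By contrast MYOD1, which commits cells to the muscle lineage, had 48.2, 48.9 and 53.3 CPM in normal clones and 101 and 141 CPM in NF fetuses (adjusted p = 0.132). MYOG, which drives fusion and differentiation, had 58.6 to 71.8 CPM in normal clones and 62.4 and 126 CPM in NF fetuses (adjusted p = 0.214). Of 21 tested skeletal muscle genes 7 rose and 1 fell, MYF5, another determination factor, with 10.8 to 14.7 CPM in normal clones and 49.9 and 75.8 CPM in NF fetuses (adjusted p = 0.0369). The MYF5 call was lost when any 1 of the 5 libraries was left out (adjusted p up to 0.169). The number of the list that rose was 8 without NF replicate 1 and 5 without NF replicate 2.

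The cardiac list followed the contractile pattern with less support. MYH7, the slow and cardiac beta myosin heavy chain, had 56.7, 64.9 and 89.7 CPM in normal clones, against 2.32 and 0.762 CPM in NF fetuses (5.47 ± 0.78, adjusted p = 0.000775). MYL7, the atrial regulatory light chain, had 3.51 to 7.72 CPM in normal clones and 0.457 and 0.546 CPM in NF fetuses (3.51 ± 0.56, adjusted p = 0.00149). In all 7 of 14 tested members rose and none fell, with a median of 2.11, but only 2 rose without NF replicate 2. ACTC1, the cardiac actin that embryonic skeletal muscle also makes, was abundant in both groups, with 1003 to 1549.8 CPM in normal clones and 558 and 1322 CPM in NF fetuses. The defining heart factors NKX2-5 and GATA4 averaged 0.0507 CPM each in normal clones, against 0.0762 and 0.518 CPM in NF fetuses, near 0 in both groups.

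Neuronal transcripts were higher in normal clones. INA, the internexin chain of neuronal filaments (chromosome 14, 114227998 to 114240566), had 380.3, 316 and 408 CPM in normal clones, against 8.73 and 6.4 CPM in NF fetuses. The lowest normal library lay far above the higher NF library (5.6 ± 0.50, adjusted p = 8.51e-05). ELAVL3, a neuronal RNA-binding protein, had 60 to 75.5 CPM in normal clones and 1.07 and 2.73 CPM in NF fetuses (5.13 ± 0.56, adjusted p = 0.000233). SLC17A6, the vesicular glutamate transporter, had 6.39 to 10.3 CPM in normal clones and 0.152 and 0.819 CPM in NF fetuses (4.09 ± 0.78, adjusted p = 0.00359). In the neuron list 11 of 14 tested members rose and none fell (median 2.63), and 10 to 12 rose with 1 library left out. Neuronal transcripts were not absent from NF fetuses: STMN2, a microtubule regulator of growing axons, had 470 to 575 CPM in normal clones and 234 and 318 CPM in NF fetuses (adjusted p = 0.0567).

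Among genes of neural progenitors and glia 6 of 13 rose and none fell (median 1.2), and 4 rose without either NF library. SOX2, a factor of the neural stem cell state, had 29.4 to 33.5 CPM in normal clones and 3.35 and 4.09 CPM in NF fetuses (3.05 ± 0.55, adjusted p = 0.0027). PAX6, a patterning factor of the neural tube and eye, averaged 10.1 CPM in normal clones and 0.722 CPM in NF fetuses (3.76 ± 0.72, adjusted p = 0.00362). FABP7, the fatty acid-binding protein of radial glia, rose by 3.59 ± 0.71 (adjusted p = 0.00437). NES, the nestin filament that young muscle and vessel cells also carry, had 1923 to 2219 CPM in normal clones and 1265 and 2051 CPM in NF fetuses and was not called (adjusted p = 0.597).

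Several of the largest rises were in factors of the nephric and neural primordia. LHX1, a LIM homeobox factor of the kidney duct and of spinal neurons (chromosome 12, 38450708 to 38457583), had 26.5, 26.3 and 34.1 CPM in normal clones and was at 0 in both NF fetuses. It was at least 134-fold higher in clones, with a floor of 3 counts over the NF group (adjusted p = 7.24e-05). MNX1, a homeobox factor of motor neurons and pancreas, had 10.7 to 17.6 CPM in normal clones and 0 CPM in NF fetuses, at least 63.8-fold higher (adjusted p = 0.000408). GBX2, which helps set the boundary of midbrain and hindbrain, was at least 23-fold higher, with 3.86 to 5.72 CPM in clones and 0 CPM in NF fetuses (adjusted p = 0.000669). ONECUT1, a factor of liver, pancreas and motor neurons, was at least 26-fold higher (adjusted p = 0.000752).

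In the kidney list 5 of 9 tested members rose and none fell (median 1.31). PAX2, an early factor of the nephric lineage, had 16.4, 14.9 and 22.5 CPM in normal clones, against 0.955 and 1.07 CPM in NF fetuses (4.12 ± 0.62, adjusted p = 0.00144). SALL1, needed for kidney outgrowth, had 98 to 120 CPM in normal clones and 5.18 and 19.8 CPM in NF fetuses (3.16 ± 0.61, adjusted p = 0.00382). WT1, the Wilms tumour factor of the developing glomerulus, averaged 8.07 CPM in normal clones and 5.89 CPM in NF fetuses and was not called.

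HOX genes called in this comparison were all higher in normal clones, and calls were found in the HOXA, HOXB, HOXC and HOXD clusters. Of 26 tested HOX genes 19 rose and none fell, with a median log2 fold change of 2.31, or 2.17 with the gene at 0 in NF fetuses set at its bound. Their summed level was 2134, 1952 and 1976 CPM in normal clones, against 558 and 392 CPM in NF fetuses. The count was sensitive to the NF libraries, at 12 without NF replicate 1 and 4 without NF replicate 2, while the median stayed between 1.97 and 2.43 over the libraries left out. HOXC12, a posterior gene of the HOXC cluster (chromosome 5, 19167174 to 19169684), had 41.7, 56.2 and 52.6 CPM in normal clones, against 2.32 and 0.152 CPM in NF fetuses (5.27 ± 0.69, adjusted p = 0.000555). Its neighbour HOXC13, which acts in hair and nail, had 25.6 to 27.1 CPM in normal clones and 0.305 and 2.18 CPM in NF fetuses (4.34 ± 0.58, adjusted p = 0.000606). HOXD13, which patterns digits, had 168, 202 and 201 CPM in normal clones and 55.1 and 3.66 CPM in NF fetuses, and did not pass (adjusted p = 0.0545). Anterior and middle genes were found both among those called higher and among those not called. HOXA3 (adjusted p = 0.018), HOXA5 (adjusted p = 0.0103) and HOXA6 (adjusted p = 0.0136) were called higher, calls lost without NF replicate 2. The calls of HOXA3 and HOXA6 were also lost without NF replicate 1, and that of HOXA3 without normal replicate 1 or 3. A trend along the clusters was not tested. HOXD1, an anterior gene, had 23.8 to 30.1 CPM in normal clones and 3.96 and 5.79 CPM in NF fetuses (2.44, adjusted p = 0.0173), a call lost without either NF library (adjusted p up to 0.0965) or without normal replicate 2. HOXA2, which patterns the hindbrain, had 9.9 to 12.3 CPM in normal clones and 10.1 and 12.1 CPM in NF fetuses, and HOXC5 averaged 7.37 CPM in normal clones and 8.78 CPM in NF fetuses, neither called.

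**Figure D3:**
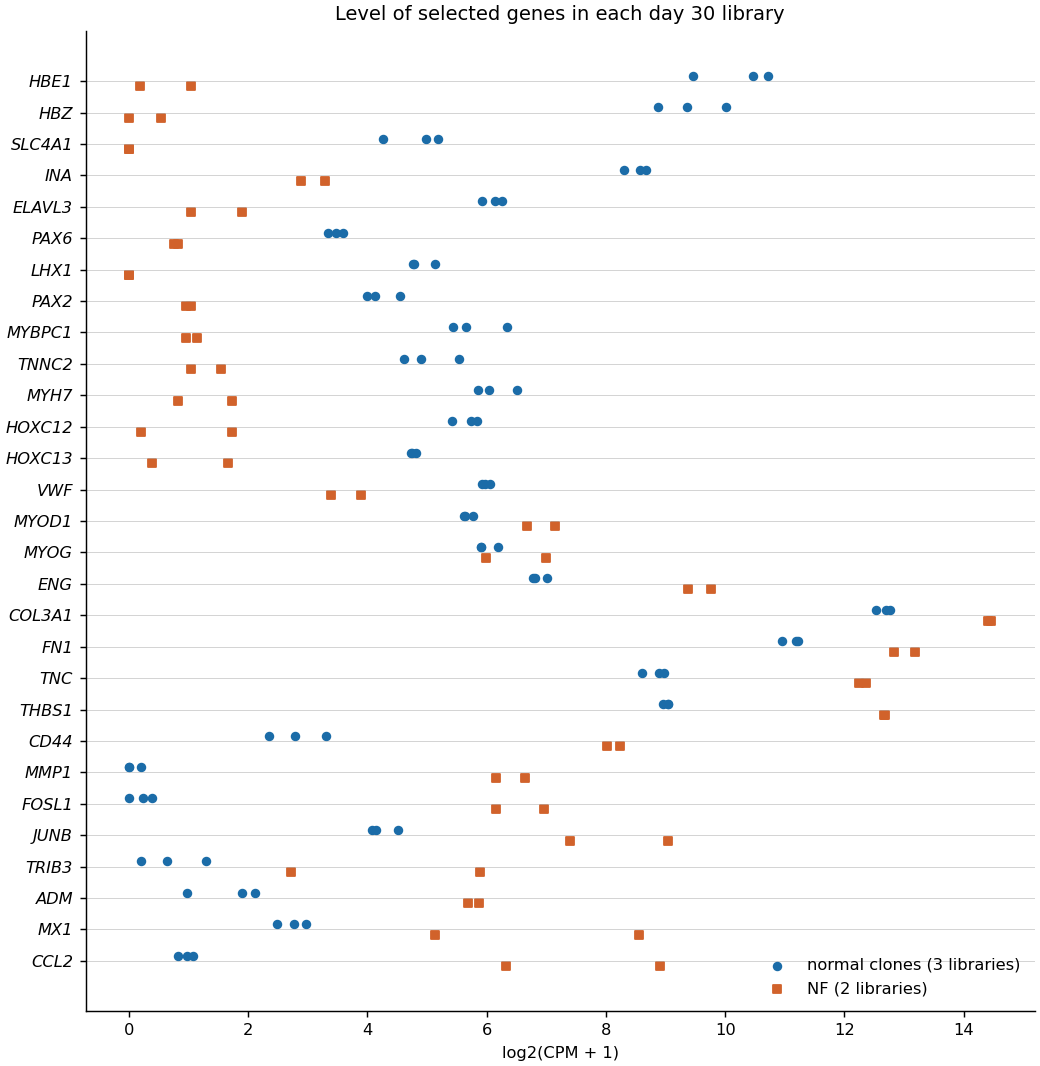
Level of 29 genes on a log2(CPM + 1) axis, with the 3 normal clones as circles and, just below them, the 2 NF fetuses as squares. Globin, neuronal, nephric, contractile and posterior HOX genes lie to the right in clones, MYOD1 and MYOG lie closer together, and matrix, AP-1, stress and interferon genes lie to the right in NF fetuses, with the NF libraries apart for MX1, CCL2 and TRIB3.

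Matrix genes were abundant transcripts on the other side. COL3A1, the type III collagen chain of loose connective tissue (chromosome 15, 93556914 to 93595678), had 5911, 6635 and 6958 CPM in normal clones, against 21664 and 22625 CPM in NF fetuses. Both NF libraries lay more than 3-fold above every normal library, and the gene fell by 1.77 ± 0.17 (log2, adjusted p = 0.000125). TNC, the tenascin of growing and healing tissue (chromosome 1, 255533235 to 255630381), had 390.2, 472 and 502 CPM in normal clones, against 5286 and 4854 CPM in NF fetuses (-3.48 ± 0.66, adjusted p = 0.00343). FN1, fibronectin, had 1991 to 2394 CPM in normal clones and 7325 and 9348 CPM in NF fetuses (-1.90 ± 0.25, adjusted p = 0.000609). COL12A1, a collagen that lies along type I fibrils, fell by 2.83 ± 0.51 (adjusted p = 0.00287).

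Within the fibroblast matrix list 11 of 14 members fell and 1 rose (median -1.77), and 9 fell without either NF library. The member that rose was TWIST1, a mesenchymal transcription factor of limb and face, with 347 to 429 CPM in normal clones and 87.5 and 103 CPM in NF fetuses (1.98 ± 0.26, adjusted p = 0.000555). LUM, a small proteoglycan of the collagen network, had overlapping levels of 568 to 723 CPM in normal clones and 608 and 663 CPM in NF fetuses. VIM, the filament protein of mesenchymal cells, had 5501 to 6355 CPM in normal clones and 4345 and 5562 CPM in NF fetuses (adjusted p = 0.606).

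Genes known to be high in fibroblasts grown in culture also fell. THBS1, thrombospondin, had 496 to 528 CPM in normal clones and 6515 and 6585 CPM in NF fetuses (-3.67 ± 0.81, adjusted p = 0.00714). CD44, the hyaluronan receptor, had 4.1, 5.94 and 8.86 CPM in normal clones, against 258 and 300.3 CPM in NF fetuses (-5.45 ± 0.91, adjusted p = 0.00183). Of the 15 tested members of that list 9 fell and none rose (median -1.73). The number that fell was 5 without NF replicate 1 and 7 without NF replicate 2. TAGLN, an actin-binding protein of contractile cells, had 181 to 202 CPM in normal clones and 630.2 and 1113 CPM in NF fetuses (-2.20, adjusted p = 0.0143), a call lost without NF replicate 1 (adjusted p = 0.0846). TPM1 and MYL9, of the contractile apparatus, averaged 968 and 51.9 CPM in normal clones and 1027 and 86.6 CPM in NF fetuses and were not called.

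Skeletal genes leaned the same way. IBSP, the bone sialoprotein of mineralizing tissue, was at 0 in all 3 normal clones and had 3.82 and 2.9 CPM in NF fetuses, at least 18.1-fold lower in clones with a floor of 3 counts over the clones (adjusted p = 0.00447). The cartilage link protein HAPLN1 had 159 to 199 CPM in normal clones and 449 and 484 CPM in NF fetuses (-1.43 ± 0.35, adjusted p = 0.0111), a call lost without NF replicate 2 (adjusted p = 0.0669). In all 4 of 14 tested cartilage and bone genes fell and none rose (median -0.75), and 1 fell without NF replicate 2. SOX9, the master factor of cartilage, averaged 85.8 CPM in normal clones and 46.6 CPM in NF fetuses and was not called.

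Endothelial genes split. ENG, endoglin, a TGF-beta co-receptor of vessels and mesenchyme, had 128, 109 and 111 CPM in normal clones, against 662 and 866 CPM in NF fetuses (-2.72 ± 0.18, adjusted p = 2.82e-05). VWF, the von Willebrand factor, went the other way with 59.8 to 65.3 CPM in normal clones and 9.45 and 13.9 CPM in NF fetuses (2.41 ± 0.20, adjusted p = 7.24e-05). KDR, the main VEGF receptor, had 164 to 173 CPM in normal clones and 62 and 343 CPM in NF fetuses, so the NF libraries lay on both sides of the clones. Of 14 tested members 5 rose and 1 fell, with 3 rising without NF replicate 1 and 9 without NF replicate 2, and the list median of 0.46 was -0.06 without NF replicate 1 and 1.71 without NF replicate 2.

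Epithelial genes did not move one way. KRT5, the basal keratin of epidermis, had 14, 21.3 and 35.6 CPM in normal clones, against 210 and 294 CPM in NF fetuses (-3.41 ± 0.68, adjusted p = 0.00456). KRT4, a keratin of moist stratified linings, had 0.369 to 0.913 CPM in normal clones and 29.3 and 47.9 CPM in NF fetuses (-5.91 ± 1.10, adjusted p = 0.00382). KRT8, a keratin of simple epithelia, had 152 to 197 CPM in normal clones and 54.3 and 61.1 CPM in NF fetuses and was not called (adjusted p = 0.17). Of 16 tested epithelial genes 2 fell and 1 rose, below the 15.3% and 14% of all genes, with a median of 0.94. Without overlap 9 lay higher and 5 lower, beside 33.2% and 32.6% of all genes. The member that rose, GRHL2, an epithelial transcription factor, lost its call without NF replicate 2 (adjusted p = 0.189) or without any 1 normal library. Among endodermal genes SHH, the sonic hedgehog ligand also made by notochord and floor plate, had 7.46 to 10.4 CPM in normal clones and 0.273 and 0.457 CPM in NF fetuses (4.51 ± 0.57, adjusted p = 0.000489). Of 8 tested lung and gut endoderm genes 3 rose and 1 fell, beside 14% and 15.3% of all genes, with a median of 0.57. FOXA1 and FOXA2 also rose, but lost their calls without NF replicate 2. CPA1 fell (-1.63, adjusted p = 0.0273), a call lost without either NF library.

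Immediate early genes, where called, were lower in normal clones. FOSL1, a FOS-family subunit of AP-1 (chromosome 2, 6430158 to 6436173), had 0, 0.304 and 0.185 CPM in normal clones, against 70.5 and 123 CPM in NF fetuses (-8.84 ± 1.21, adjusted p = 0.000669). Its ratio of 513, NF over normal, has a 95% interval of 175 to 2490 from counting alone, because the clones held 3 counts in all. JUNB, a JUN-family partner, had 15.8 to 21.9 CPM in normal clones and 167 and 527 CPM in NF fetuses (-4.26 ± 0.43, adjusted p = 0.000172). IER3, an early gene of stress and survival, had 1.69, 1.67 and 1.66 CPM in normal clones, against 44.5 and 94.5 CPM in NF fetuses (-5.35 ± 0.35, adjusted p = 2.82e-05). SOCS3, the feedback inhibitor of cytokine signalling, fell by 4.0 ± 0.71 (adjusted p = 0.00248).

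Of the 18 immediate early and AP-1 genes tested 12 fell and none rose (median -2.46), and 12 fell with either NF library left out. MYC, the growth regulator, had 47.4 to 57.8 CPM in normal clones and 215 and 476 CPM in NF fetuses (adjusted p = 0.000294). JUN itself was not among them, with 255 to 337 CPM in normal clones and 163 and 221 CPM in NF fetuses (adjusted p = 0.167). FOS had 26.4 to 41 CPM in normal clones and 72.4 and 207 CPM in NF fetuses, and missed the threshold (adjusted p = 0.0556). Day 30 clones labelled abnormal, which are outside this comparison, summed to 3034 and 2718 CPM over the list. The normal clones summed to 700.1 to 863 CPM, and the NF fetuses to 2436 and 3292 CPM. Other lists differed. Over the interferon-induced list the abnormal clones summed to 494 and 423 CPM, nearer the normal clones (371 to 402 CPM) than the NF fetuses (805 and 2127 CPM). Over the fibroblast matrix list they summed to 22061 and 19488 CPM, within the range of the normal clones.

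Interferon-induced genes had the lowest median of the 36 lists, -3.09, and 20 of 26 tested members fell while none rose. MX1, an antiviral GTPase (chromosome 13, 204843049 to 204868927), had 4.58, 5.78 and 6.83 CPM in normal clones, against 34.3 and 375 CPM in NF fetuses (-5.14 ± 0.79, adjusted p = 0.00119). NF replicate 2 stood far above NF replicate 1, and both lay above every clone. IFIT3, an RNA-binding antiviral protein, had 0.724 to 0.923 CPM in normal clones and 8.73 and 53.8 CPM in NF fetuses (-5.23 ± 0.72, adjusted p = 0.000687). B2M, the light chain of MHC class I, had 11.9 to 18.3 CPM in normal clones and 201 and 291 CPM in NF fetuses (adjusted p = 8.51e-05).

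The size of the interferon difference turned on NF replicate 2. Without that library 8 members fell and the median was -1.51, while without NF replicate 1 the count was 24. Summed levels were 371, 397 and 402 CPM in normal clones, against 805 and 2127 CPM in NF fetuses. Of 19 tested leukocyte markers 3 fell (median -0.74), a share near the 15.3% of all genes. Without overlap 9 lay lower and 2 higher, beside 32.6% and 33.2% of all genes. The number that fell was 4 without NF replicate 1 and 0 without NF replicate 2. The part of leukocytes in the interferon difference was not tested.

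Secreted inflammatory genes stood among the largest falls. CCL2, the chemokine that draws monocytes, had 0.965, 0.761 and 1.11 CPM in normal clones, against 78.7 and 481 CPM in NF fetuses (-8.19 ± 1.57, adjusted p = 0.00365). IL6, an acute phase cytokine, was at 0 in all clones and had 3.55 and 14.2 CPM in NF fetuses, at least 47.7-fold lower in clones with a floor of 3 counts over the clones (adjusted p = 0.00807). CXCL10, an interferon-induced chemokine, had 0 to 0.369 CPM in normal clones and 1.23 and 63.9 CPM in NF fetuses, and its call was lost without NF replicate 2 (adjusted p = 0.11). MMP1, the interstitial collagenase (chromosome 9, 33411738 to 33420205), had 0, 0.152 and 0 CPM in normal clones, against 70.5 and 99.6 CPM in NF fetuses (-9.91 ± 1.47, adjusted p = 0.00101).

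**Figure D4:**
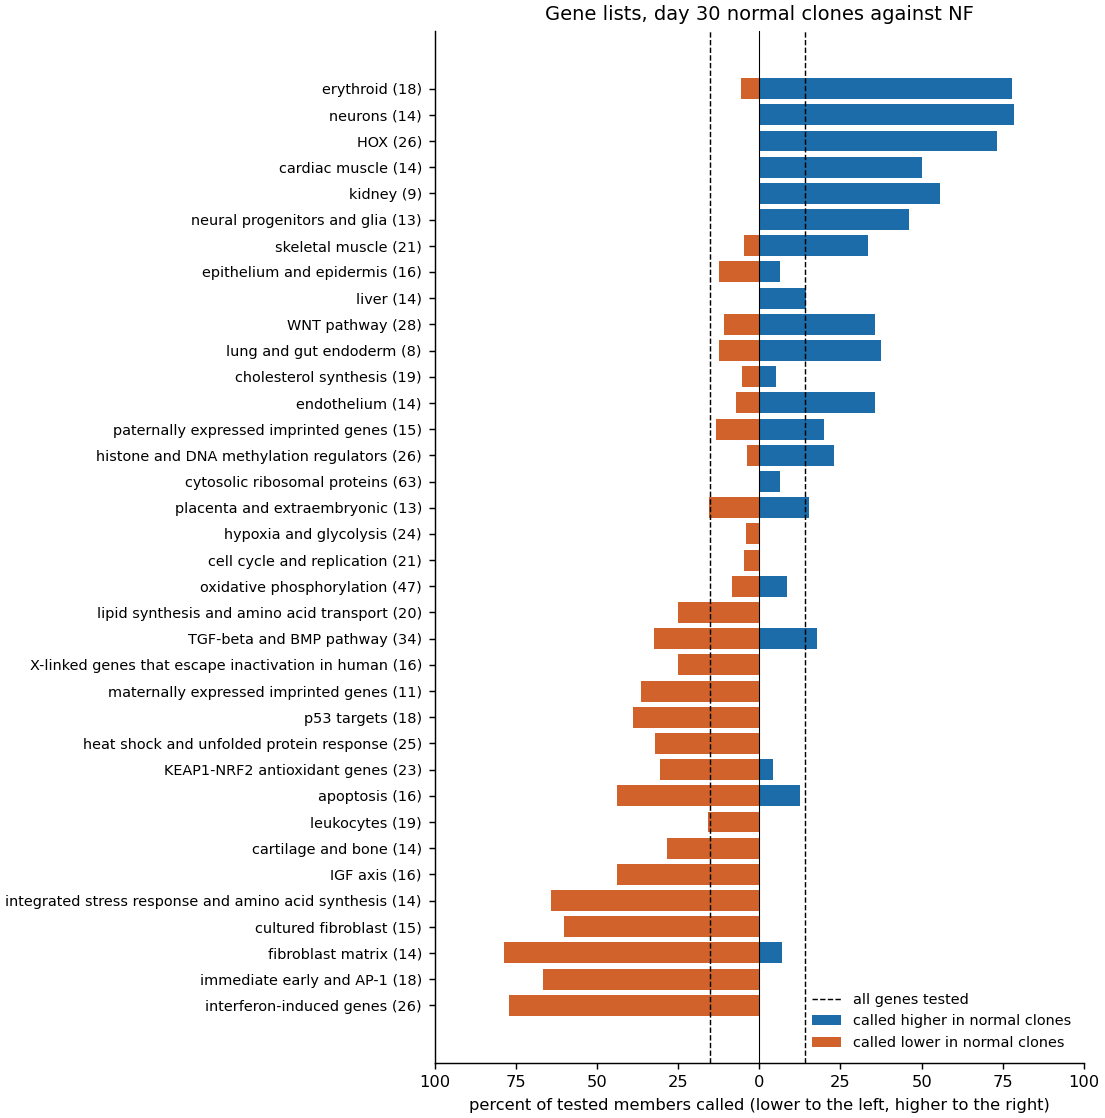
Percent of the tested members of each of 36 lists called higher (right) or lower (left) in day 30 normal clones, sorted by median log2 fold change, with the number tested in brackets and dashed lines at the 14% and 15.3% of all genes. Erythroid, neuron and HOX lists reach furthest right, and interferon-induced, fibroblast matrix and immediate early lists furthest left.

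Stress programmes were lower in normal clones to unequal degrees. In the integrated stress response list 9 of 14 tested members fell and none rose (median -1.51). The number that fell was 8 without NF replicate 1 and 6 without NF replicate 2. TRIB3, a pseudokinase induced downstream of ATF4, had 1.45, 0.152 and 0.554 CPM in normal clones, against 5.59 and 58.2 CPM in NF fetuses (-5.57 ± 0.93, adjusted p = 0.0018). ATF4 itself, the factor translated when initiation is slowed, had 305 to 369 CPM in normal clones and 761 and 1236 CPM in NF fetuses (adjusted p = 0.001). The heat shock and unfolded protein list had 8 of 25 members lower (median -0.46), with 3 lower without NF replicate 1. Its called members included XBP1, a factor of the unfolded protein response, with 118 to 131 CPM in normal clones and 300 and 340 CPM in NF fetuses (-1.37 ± 0.25, adjusted p = 0.00297).

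Antioxidant, p53 and apoptosis genes gave shorter lists of falls. HMOX1, the haem oxygenase, had 15.9, 20.6 and 26.9 CPM in normal clones, against 172 and 234 CPM in NF fetuses (-3.26 ± 0.54, adjusted p = 0.00181). In the KEAP1-NRF2 list 7 of 23 fell and 1 rose. PHLDA3, a p53-induced inhibitor of AKT, had 18.8 to 24.4 CPM in normal clones and 86 and 99.2 CPM in NF fetuses (-2.12 ± 0.25, adjusted p = 0.000306). Of 18 p53 targets 7 fell (median -0.41), with 4 falling without NF replicate 1. Of 16 apoptosis genes 7 fell and 2 rose, and without NF replicate 2 the numbers were 2 and 0.

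Glycolysis and hypoxia genes were close to balance except for 1 member. ADM, the vasodilator adrenomedullin, had 0.965, 2.74 and 3.32 CPM in normal clones, against 57.9 and 50.3 CPM in NF fetuses (-4.46 ± 0.56, adjusted p = 0.000463). It was the 1 called gene of 24 tested, and the list median was 0.16. GAPDH had 2464 to 2563 CPM in normal clones and 2040.0 and 2892 CPM in NF fetuses (adjusted p = 0.965), and PKM, pyruvate kinase, 1688 to 1928 CPM in normal clones and 2127 and 2132 CPM in NF fetuses (adjusted p = 0.526).

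Proliferation genes showed little difference. Of 21 tested cell cycle and replication genes none rose and 1 fell, CCND2, a D-type cyclin, with 38 to 48.1 CPM in normal clones and 88.3 and 134 CPM in NF fetuses (-1.32 ± 0.32, adjusted p = 0.011). That call was lost without NF replicate 1 (adjusted p = 0.0835). MCM2, a subunit of the replicative helicase, had 423 to 464 CPM in normal clones and 383 and 482 CPM in NF fetuses, a log2 fold change of 0.02 ± 0.33. TOP2A, the topoisomerase of dividing cells, had 1134 to 1309 CPM in normal clones and 471 and 628 CPM in NF fetuses, and did not pass (adjusted p = 0.184). Ribosomal proteins and respiratory chain subunits were also near balance, with medians of 0.18 over 63 genes and 0.03 over 47 genes. Called were 4 ribosomal protein genes, all higher, and 8 respiratory chain genes, 4 in each direction. In both lists these shares lay below the 14% of all genes called higher and the 15.3% called lower. Without NF replicate 2 no ribosomal gene rose and 1 fell, and without NF replicate 1 the respiratory chain genes that fell numbered 1.

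Genes of the IGF axis, where called, were lower in normal clones. IGF2, the paternally expressed fetal growth factor, had 372, 377 and 376 CPM in normal clones, against 799 and 1089 CPM in NF fetuses (-1.33 ± 0.24, adjusted p = 0.00273). IGF2R, the maternally expressed receptor that clears IGF2 (chromosome 1, 7369485 to 7472480), had 169, 194 and 185 CPM in normal clones, against 726 and 954 CPM in NF fetuses (-2.20 ± 0.27, adjusted p = 0.000362). PAPPA, a protease that frees IGFs from a binding protein, had 24.8 to 31.4 CPM in normal clones and 207 and 239 CPM in NF fetuses (-2.96 ± 0.50, adjusted p = 0.00202). IGFBP6, a binding protein with a preference for IGF2, fell by 3.08 ± 0.32 (adjusted p = 0.000186). Of 16 tested members 7 fell and none rose (median -0.77). IGFBP2, another binding protein, lay the other way with 732 to 796 CPM in normal clones and 189 and 369.5 CPM in NF fetuses, and was not called (adjusted p = 0.0782). The signalling receptor IGF1R had 187 to 233 CPM in normal clones and 137 and 144 CPM in NF fetuses and was not called.

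Imprinted genes, which are expressed from 1 parental copy, did not move as a class. DLK1, a paternally expressed regulator of growth and fat cell formation, had 24.1, 51.5 and 44.7 CPM in normal clones, against 164 and 208 CPM in NF fetuses (-2.21 ± 0.44, adjusted p = 0.00429). Of 15 tested paternally expressed genes 3 rose and 2 fell, and none rose without NF replicate 2. Of 11 maternally expressed genes 4 fell and none rose. PHLDA2, a maternally expressed restrainer of placental growth, had 6.09 to 6.27 CPM in normal clones and 29.7 and 31.4 CPM in NF fetuses (-2.30 ± 0.51, adjusted p = 0.00726). TFPI2, an inhibitor of matrix proteases that is imprinted in the placenta, fell by 3.90 ± 0.35 (adjusted p = 8.51e-05).

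Signals that pattern the embryo gave members on both sides. WNT7A, a ligand of limb and nerve, had 19.5, 19.3 and 23.1 CPM in normal clones, against 0.682 and 0.915 CPM in NF fetuses (4.65 ± 0.85, adjusted p = 0.00296). The receptor FZD10 had 86.6 to 97.2 CPM in normal clones and 7.51 and 8.38 CPM in NF fetuses (3.51 ± 0.54, adjusted p = 0.00117). In the WNT list 10 of 28 rose and 3 fell, and 3 rose and none fell without NF replicate 2. TGFB1, the first TGF-beta ligand, had 21.7 to 23 CPM in normal clones and 106 and 178 CPM in NF fetuses (-2.67 ± 0.30, adjusted p = 0.000256). FST, the activin trap follistatin, fell by 2.16 ± 0.35 (adjusted p = 0.00168). Of 34 TGF-beta and BMP genes 11 fell and 6 rose, and without NF replicate 2 the numbers were 5 and 1. The counts of both lists stand beside 14% of all genes called higher and 15.3% called lower.

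Among regulators of chromatin HDAC1, a histone deacetylase, had 201, 204 and 204 CPM in normal clones, against 98.9 and 88.3 CPM in NF fetuses (1.12 ± 0.17, adjusted p = 0.00101). SUV39H2, a writer of methylation on lysine 9 of histone H3, had 57.8 to 74.4 CPM in normal clones and 27.3 and 31.3 CPM in NF fetuses (1.21 ± 0.20, adjusted p = 0.00198). The de novo DNA methyltransferase DNMT3A had 129.9 to 153 CPM in normal clones and 20.1 and 41.8 CPM in NF fetuses (2.18 ± 0.44, adjusted p = 0.00485), a call lost without NF replicate 2 (adjusted p = 0.0549). Of 26 tested members 6 rose and 1 fell, and 3 rose and none fell without NF replicate 2. DNMT1, the maintenance methyltransferase, had 473 to 542 CPM in normal clones and 498 and 694 CPM in NF fetuses (adjusted p = 0.675).

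The series is about XIST, the RNA that silences an X chromosome, and the X was therefore compared with the autosomes. XIST itself is not analysed here. The median log2 fold change was 0.11 over 421 X-linked genes and -0.01 over 9413 autosomal genes, a difference of 0.12. Of the X-linked genes 71 (16.9%) were called higher and 56 (13.3%) lower, against 13.9% and 15.5% of autosomal genes. The log2 ratio of median X-linked to median autosomal CPM was -0.02, -0.05 and 0.01 in the normal clones and -0.11 and -0.22 in the NF fetuses. Group means were -0.0213 ± 0.0291 (SD, n = 3) in clones and -0.162 ± 0.0794 (SD, n = 2) in NF fetuses, and the exact two-sided permutation p was 0.1, the smallest that 10 splits allow. The sex label and the Y-linked transcript differ between the NF libraries, and their part in this ratio was not tested.

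Genes that escape X silencing in human were lower in normal clones where they were called. DDX3X, an RNA helicase, had 544, 556 and 525 CPM in normal clones, against 973 and 989 CPM in NF fetuses (-0.86 ± 0.16, adjusted p = 0.00365). MED14, a Mediator subunit, had 85.1 to 91.4 CPM in normal clones and 204 and 213 CPM in NF fetuses (-1.23 ± 0.25, adjusted p = 0.00473). In all 4 of 16 tested members fell and none rose, beside 15.3% and 14% of all genes, and 2 fell without either NF library.

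The day 35 fetuses gave the same contrast in other libraries, 3 normal clones and 2 NF fetuses, within the same fit. There 4190 genes (42.3%) were called, 2195 higher (22.1%) and 1995 lower (20.1%). Of the genes called higher at day 30, 1133 (81.7%) were also called higher at day 35, which is 51.6% of the day 35 calls in that direction, and none was called lower. Of those called lower at day 30, 1125 (74.1%) were called lower at day 35, which is 56.4% of the day 35 calls, and 10 were called higher. INA averaged 488 ± 160.4 CPM in day 35 normal clones (SD, n = 3) and 3.43 ± 3.13 CPM in day 35 NF fetuses (SD, n = 2). TNC averaged 435 ± 26 CPM in day 35 normal clones and 6722 ± 2234 CPM in day 35 NF fetuses.

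Embryonic globins were at low levels in clones at day 35. HBE1 averaged 16.1 ± 11.7 CPM in day 35 normal clones (n = 3) and 0.948 ± 0.352 CPM in day 35 NF fetuses (n = 2), and HBZ 12 ± 5.92 CPM in clones and 0.173 ± 0.00261 CPM in NF fetuses, neither called. HBB averaged 2086 ± 737 CPM in day 35 normal clones and 172 ± 6.69 CPM in day 35 NF fetuses (log2 fold change 3.60 ± 1.03, adjusted p = 0.0164).

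A test of the difference between the days called 2 genes of 9911 (0.0202%). DESeq2 called 364 and limma 0, and 1414 genes had an unadjusted p under 0.05 in edgeR. MFAP5, a glycoprotein of elastic microfibrils, had 1.69, 1.07 and 1.29 CPM in day 30 normal clones, against 46.7 and 72 CPM in day 30 NF fetuses. At day 35 it averaged 57 CPM in normal clones and 81.4 CPM in NF fetuses, not called there (difference of log2 fold changes 4.95 ± 0.52, adjusted p = 0.00981). TNMD, a membrane protein of tendon (chromosome X, 82269323 to 82292083), had 18.8, 21.2 and 26.2 CPM in day 30 normal clones, against 140 and 88.1 CPM in day 30 NF fetuses. At day 35 it averaged 103 CPM in normal clones and 70.2 CPM in NF fetuses (difference 2.92 ± 0.37, adjusted p = 0.0297). The MFAP5 call was lost without day 30 normal replicate 2, day 35 normal replicate 1 or either day 35 NF library (adjusted p 0.0575 to 0.189). The TNMD call was lost without those libraries and also without day 30 normal replicate 1, day 30 NF replicate 1 or day 35 normal replicate 2 (adjusted p 0.101 to 0.201).

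**Figure D5:**
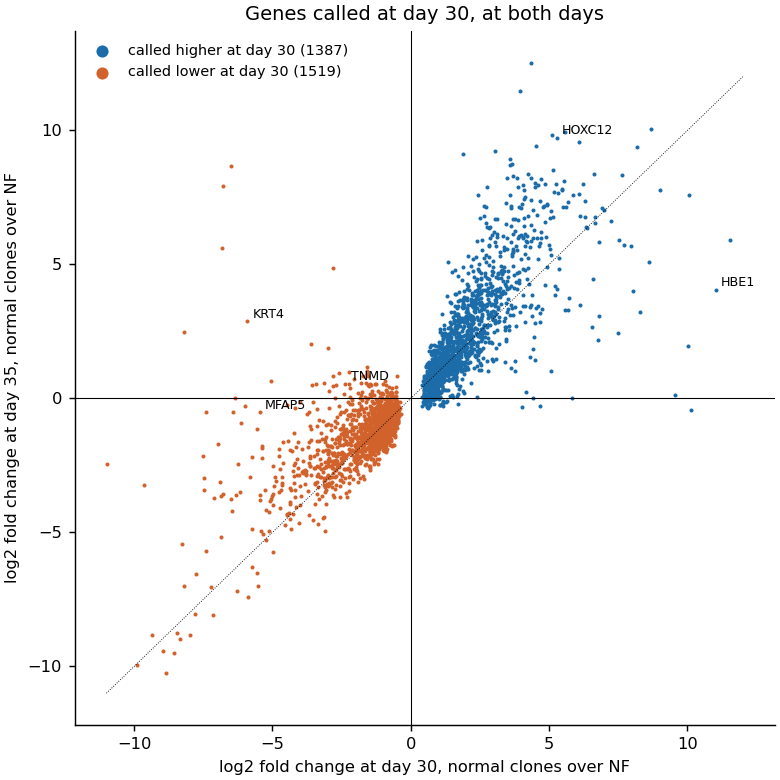
Log2 fold change of normal clones over NF fetuses at day 35 (vertical) against day 30 (horizontal) for the 2906 genes called at day 30, which use separate libraries. Most points lie in the quadrants of equal sign, HBE1 falls well below the dotted line of equality, and MFAP5, TNMD and KRT4 lie at or above 0 at day 35 or close to it while far below 0 at day 30.

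Some of the largest fitted changes did not hold with a library left out. PIMREG, a mitotic regulator, was at 0 in all 3 normal clones and had 58.9 and 50.3 CPM in NF fetuses (adjusted p = 0.0486), a call lost when any 1 of the 5 libraries was left out. GALNS, a lysosomal sulfatase, had 11.8 to 29.3 CPM in normal clones and 0 CPM in NF fetuses (adjusted p = 0.0436), likewise lost on leaving out any library. The microsomal epoxide hydrolase EPHX1 and the splicing factor SRSF11 were at 0 in all normal clones, with 9.14 and 34 CPM and with 6.41 and 9.45 CPM in NF fetuses, and were lost without NF replicate 2 (adjusted p = 0.0723 and 0.0522). SRSF11 averaged 14.7 CPM in day 35 normal clones and 2.62 CPM in day 35 NF fetuses. Of 162 called genes named by rule, 94 were called under every alternative that gave them a value and 63 lost their call when 1 day 30 library was left out. Only 78 of them had a value under every alternative, and 41 of these were called in all, since versioned accessions matched 81. Among the genes of highest level called higher were HNRNPA1, EEF1G, RPS3 and APP, which all lost their call without NF replicate 2. The calls of EEF1G and APP were lost when any 1 of the 5 libraries was left out. RPS3 also lost its call without any 1 normal library, and HNRNPA1 without NF replicate 1 or normal replicate 2.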

How the data were processed

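RNA sequencing libraries of pig fetuses were used, grouped by their labels. RSEM 1.2.4 and the build Sscrofa11.1 (susScr11) are named in the submitters' processing notes. Each deposited table lists, per the file headers, an expected count for every transcript record. Beside it stands the deposited TPM, a value scaled for length and depth. Aligner and read filters: not given in the sources used.

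Of 65927 records, 25305 were matched to a gene by RefSeq accession without version, holding 66.0% to 66.8% of counts at day 30. Expected counts were summed per gene and rounded. A gene's level covers its matched records only, and 53 of 166 named genes had unmatched reference transcripts. The 14 fetus libraries entered 1 model of group means (edgeR 4.0.16, R 4.3.3) with filterByExpr, TMM and quasi-likelihood F-tests. Benjamini-Hochberg adjustment over the 9911 genes used a threshold of 0.05. The biological coefficient of variation was 0.29. Fold changes are normal over NF, SE is the fold change divided by the root of F, and CPM follow TMM. Intervals and floors of 3 counts cover counting error only. On simulated data with 9911 genes, 50 genes above a minimum level were changed at each fold. There the comparison recovered 28% of 2-fold, 70% of 4-fold, 94% of 8-fold and 92% of 16-fold changes, and 4.70% of calls were false. Far fewer genes were changed than the 2906 called in the data, so these shares need not carry over.

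Alternatives were RLE size factors, no filter, a filter at 1 CPM in 2 libraries, DESeq2 1.42.0, limma 3.58.1 on log2(TPM + 1), only the compared or day 30 libraries, a replicate block, labelled sex, versioned accessions, each library left out, and, chosen after seeing the data, a fitted length trend removed. Coordinates are those of RefSeq on Sscrofa11.1.

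Members and lists were chosen with earlier results of these data known. Named genes were, per direction, the 15 called genes of largest change whose average log2 CPM reached 1 and whose libraries did not overlap, and the 5 called of highest mean CPM. Up to 4 called members per list, or 2 by level where fewer were called, and the genes called for a difference between days were added. Other members, EIF1AY and the families in the closing section were chosen after their values were seen. Preference went to calls that survived the loss of any library. Embryo libraries, day 6, are not used here. Summaries were made in Python 3.11.15 with numpy 2.4.6, scipy 1.17.1, pandas 2.3.3 and matplotlib 3.10.9. Some genes are not reported here.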

Additional observations from a re-analysis of the deposited data

Results flagged for a closer look

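A pair of genes differed between days in the size of their change between normal clones and NF fetuses. MFAP5, the microfibril glycoprotein, was far lower in normal clones at day 30 and close to NF fetuses at day 35, a difference of log2 fold changes of 4.95 between the days. TNMD, the tendon protein, was lower in normal clones at day 30 and not called at day 35, a difference of 2.92. Both rest on a test of the difference itself. With limma on TPM the adjusted p was 0.096 for MFAP5 and 0.0597 for TNMD, and with replicate number as a block it was 0.0281 for MFAP5 and 0.161 for TNMD. The groups hold 2 or 3 libraries, too few to look for a single outlying library.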

How the results depend on the processing

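The 2906 genes called at day 30 became 1296 with labelled sex as a covariate, which leaves NF replicate 2 as the only fetus labelled female, and 731 of 2964 genes when accessions had to match with their version. With 1 library left out they ran from 1276 to 4439, the highest without day 35 abnormal replicate 2. Under RLE size factors, other filters, DESeq2 (3475), limma on TPM (2230), the smaller fits (4211 and 4197) and removal of the length trend the count stayed within 1.5 times. The 4190 calls at day 35 became 1132 with versioned accessions and 2147 to 5630 with 1 library left out. The 2 genes that differed between days became 364 with DESeq2, 0 with limma, 56 with labelled sex, 6 with versioned accessions, and 0 to 473 with 1 library left out. The X minus autosome median of 0.12 became 0 without a filter on low counts and -0.016 with versioned accessions. Of the 30 genes of largest change, 19 stayed called with labelled sex, 11 with versioned accessions and 19 to 25 with a day 30 library left out. The causes were not tested. Replicate numbers pair nothing by design, and deviations of libraries correlated at -0.0256 to 0.0256. With replicate number as a block 2097 genes were called at day 30, 3450 at day 35 and 2 between days, the X difference was 0.165, and 24 of the 30 genes stayed called. Of 36 lists, 20 had a positive median, and 16 to 20 over the alternatives. No named gene reversed. NF libraries at 0 limit folds to bounds.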

Other observations

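Gene families taken by symbol, chosen after their values were seen, gave further values. Their counts stand beside 14% of all genes called higher and 15.3% called lower. Of 13 tested matrix metalloprotease genes 7 were lower and 2 higher in normal clones than in NF fetuses. MMP9, a gelatinase, had 0 to 0.369 CPM in normal clones and 41.3 and 50.3 CPM in NF fetuses (log2 fold change -7.40 ± 0.92, adjusted p = 0.000449). MMP13, a collagenase of cartilage, had 0.241 to 1.48 CPM in normal clones and 13.9 and 27.9 CPM in NF fetuses (adjusted p = 0.00298). Of 21 interleukin receptor genes 9 were lower and 1 higher. IL1R1, the receptor of interleukin 1, had 17.4 to 21.8 CPM in normal clones and 125 and 232 CPM in NF fetuses (adjusted p = 0.00199). Among 9 S100 calcium-binding genes 5 were lower and none higher, with S100A10 at 69.2 to 88.9 CPM in normal clones and 346 and 536 CPM in NF fetuses.

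Neural families lay on the other side. Of 9 tested LIM homeobox genes 6 were higher and none lower in normal clones. LHX5, a factor of forebrain and spinal neurons, had a mean of 11.6 CPM in normal clones and 0.136 and 0.152 CPM in NF fetuses (6.08 ± 0.94, adjusted p = 0.00163). ISL1, a factor of motor and sensory neurons, had 33.2 to 39 CPM in normal clones and 4.09 and 4.73 CPM in NF fetuses (adjusted p = 0.000408). Of 10 GABA and glycine receptor genes 6 were higher and 1 lower. Of 12 chemokine genes 5 were lower and 2 higher. One of the higher was CXCL13, a B cell chemokine, with 7.72 to 12.9 CPM in normal clones and 0.152 and 0.409 CPM in NF fetuses (adjusted p = 0.000929). Among 149 zinc finger genes with a ZNF symbol 22 were higher and 3 lower, where 14% and 15.3% of all genes were called in those directions.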
